A study of Homo sapiens with 18 samples.

Results

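The aminoacyl-tRNA synthetases examined here are 35 genes, taken by name: 20 that encode cytosolic enzymes and 15, with a trailing 2 in the name, that encode mitochondrial enzymes. All 35 of 35 names were found among the 19784 genes of the deposited tables. The tables come from 18 RNA sequencing libraries of poly(A) RNA from THP-1, a line of human leukaemic monocytes (acute myeloid leukaemia) whose labels name MLL-AF9, a fusion oncogene. In the first experiment, 4 libraries each were made from THP-1 with the genotype label wt and from derivatives labelled PHF8 and F279S, with no treatment or time given. In the second, 2 libraries each were made at day 3 from derivatives titled ERAA (genotype PHF8AA, 4-OHT), ERDD (genotype PHF8DD, 4-OHT) and ERPHF8 (genotype PHF8, no treatment named). The labels' protocol gives 100 nM 4-OHT (4-hydroxytamoxifen) for induction of PHF8AA or PHF8DD. Line and treatment therefore cannot be told apart wherever ERPHF8 is compared with ERAA or ERDD. PHF8 is a histone demethylase with a JmjC domain. By its title, the series asks how chromatin regulation of the interferon type I response bears on leukaemic self-renewal. The labels do not spell out ER, AA or DD, and do not say whether a derivative is 1 clone or whether libraries of a group came from separate cultures. The p-values below therefore measure only the spread between these libraries, which may be technical.

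Each synthetase joins 1 amino acid, or in the case of EPRS both glutamate and proline, to its transfer RNAs, so that the ribosome can read the genetic code. Cytosolic enzymes serve translation of nuclear-encoded messages, and nuclear-encoded mitochondrial enzymes are imported to serve the small set of proteins made inside mitochondria; GARS and KARS are known to serve both places. Several cytosolic enzymes sit together in a multisynthetase complex held by the scaffold proteins AIMP1, AIMP2 and EEF1E1. Many cytosolic synthetase genes are known targets of ATF4, the transcription factor of the integrated stress response, which is made when amino acids run short and which also drives amino acid synthesis and import genes such as ASNS and PSAT1.

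Values are CPM, a gene's reads scaled to a library of 1e6 reads. The reads were taken to be counted over the gene's whole span in the build hg38, introns included. Totals per library were 18.2 to 24.3 M (1e6) reads in replicates 1 and 2 of the first experiment, 20.8 to 51.5 M in its replicates 3 and 4, and 40.6 to 41.3 M in the ER lines. PHF8 itself (chromosome X, 53936676 to 54048958) was at 45.5 to 54.0 CPM in wt, 1900 to 2096 in PHF8, 5001 to 5781 in F279S, 2305 and 1995 in ERAA, 1098 and 1119 in ERDD and 1900 and 1912 in ERPHF8, so every derivative held more PHF8 RNA than wt, and ERDD the least among them. All 8 monocytic markers listed reached at least 1 CPM in every library (summed 1047 to 2102 CPM), while CD3E, CD3D, MS4A1, GATA1, HBB and EPCAM stayed below 1 CPM in every library. Of the remaining markers of other cells, PECAM1, which monocytes also make, was the highest. All 35 synthetases passed the filter on low values in both experiments. Of them, 22 overlap no other gene of the table and 13 do, and reads in the shared bases cannot be assigned to 1 gene. The heaviest overlaps are AARS2 (100% of its span inside another, longer gene and 57.4% with TMEM151B), SARS2 (99.1% with CTC-360G5.8), YARS2 (63.9% with DNM1L), VARS2 (32.2% with GTF2H4) and MARS (31.7% with ARHGAP9). The gene for MARS also shares 982 bases with DDIT3, and HARS and HARS2 share 599 bases.

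Cytosolic synthetase RNA was more abundant than mitochondrial synthetase RNA in all 6 lines. Per kilobase of the principal transcript (GENCODE v29), the median mean level of the 20 cytosolic enzymes was 55.4 CPM per kb in wt, 63.1 in PHF8, 55.5 in F279S, 89.9 in ERAA, 60.2 in ERDD and 76.4 in ERPHF8. The corresponding medians for the 15 mitochondrial enzymes were 11.01, 14.6, 11.4, 9.47, 14.96 and 13.5 CPM per kb. The ratio of these medians was thus largest in ERAA, at 9.50, and between 4.03 and 5.65 in the other 5 lines. Averaged over the 6 lines, SARS, EPRS and KARS (serine, glutamate with proline, and lysine) were the highest cytosolic members at 120.0, 113.3 and 113.1 CPM per kb. The lowest were CARS (cysteine) at 30.4, FARSB (the beta subunit of the phenylalanine enzyme) at 30.1 and HARS (histidine) at 29.1 CPM per kb. Among mitochondrial members IARS2 (isoleucine) stood far above the rest at 97.8 CPM per kb, followed by YARS2 at 39.4 and CARS2 at 34.0. At the bottom were WARS2 at 6.03, VARS2 at 5.25 and PARS2 at 2.5 CPM per kb. YARS2 shares reads with DNM1L, whose group means were 85.4 to 95.5 CPM beside 77.6 to 87.2 for YARS2, so its place may rest on those reads. Reads in introns are taken to count here, while the transcript length leaves introns out. No test was made of the order.

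**Figure D1:**
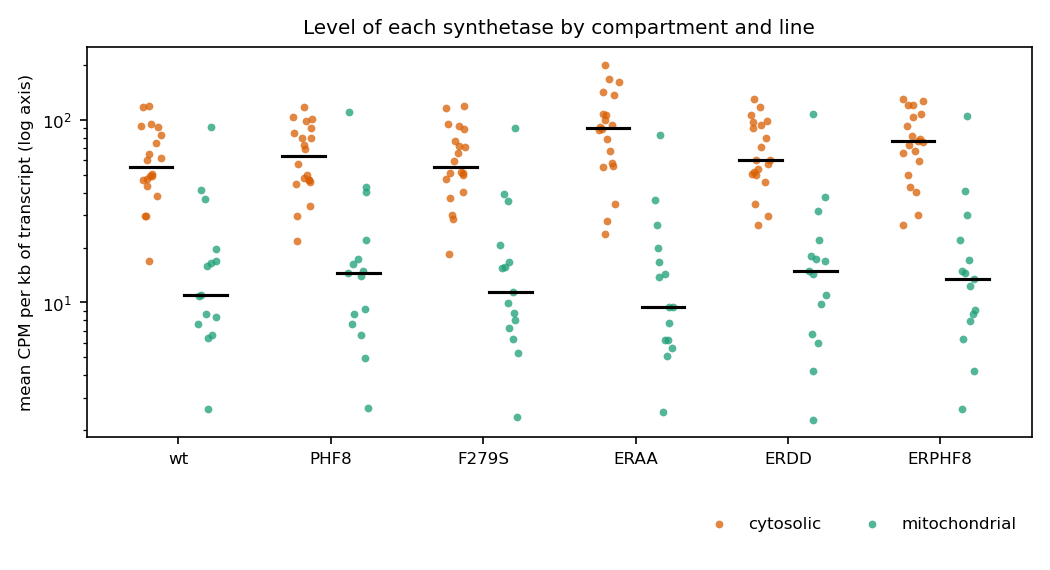
Mean CPM per kb of principal transcript (log axis) for each cytosolic (orange, n = 20) and mitochondrial (green, n = 15) synthetase in the 6 lines, with black bars at the medians. The cytosolic median is highest in ERAA (89.9) and the mitochondrial median is lowest there (9.47), while the single mitochondrial point near 100 in each line is IARS2.

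The C/EBP-ATF element to which ATF4 binds was looked for in the synthetase promoters as the letters TTGCATCA and TGATGCAA, which are 1 sequence read on both strands. RefSeq promoter windows (GRCh38.p14, from 250 bases before to 50 bases after each start) were at hand for 29 of the 35 genes, and 6 had none (DARS, LARS, VARS, YARS, AARS2 and VARS2). The letters occurred in 6 of the 29, against 1.08% of the 27305 genes with a window. All 6 encode cytosolic enzymes that were lower in ERDD than in ERAA, the comparison described next. Each is shown 5′ to 3′ on the gene's strand with the matched letters in capitals.
TARS (chr5:33440956-33440985, + strand): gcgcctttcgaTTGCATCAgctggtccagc
IARS (chr9:92293692-92293721, - strand): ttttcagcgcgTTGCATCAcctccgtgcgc
CARS (chr11:3057407-3057436, - strand): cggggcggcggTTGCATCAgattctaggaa
MARS (chr12:57488053-57488082, + strand): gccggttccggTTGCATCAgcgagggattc
AARS (chr16:70289675-70289704, - strand): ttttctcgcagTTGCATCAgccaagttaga
NARS (chr18:57621804-57621833, - strand): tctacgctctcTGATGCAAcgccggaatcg
Relative to the RefSeq start, the letters began at base 3 in TARS, -13 in IARS, -2 in CARS, -4 in MARS, -187 in AARS and 15 in NARS. AARS therefore carried them upstream of the start, and the other 5 genes close to it. A match is a description of the letters and not a measured binding site, and a window without them says nothing about the factor.

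Between ERDD and ERAA, the pair of lines that both carry the 4-OHT label, the cytosolic enzymes split into a larger group that was lower in ERDD and a smaller group that was higher, and most mitochondrial enzymes that changed were higher. In all, 12 synthetases rose and 15 fell, against a background of 34.8% of the 13831 tested genes higher and 33.3% lower in this comparison (68.1% called). Among the 20 cytosolic enzymes 14 fell and 5 rose, with a median log2 change of -0.58, whereas among the 15 mitochondrial enzymes 1 fell and 7 rose, with a median of 0.14. The median over all tested genes was near 0. Leaving out the members that overlap another gene gave 10 lower and 4 higher of 14 cytosolic, and 0 lower and 3 higher of 8 mitochondrial. Fewer cells holding an RNA and less of that RNA per cell cannot be told apart in such bulk libraries. Calls here are for a Benjamini-Hochberg adjusted p below 0.05 over all tested genes in limma, with changes on the log2(CPM + 0.5) scale.

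The enzyme for cysteine showed the steepest fall. CARS (chromosome 11, 3000922 to 3057613) was at 152 and 149 CPM in ERAA and 70.7 and 71.1 CPM in ERDD, a log2 change of -1.08 ± 0.039 (SE, adjusted p = 3.5e-07). WARS (chromosome 14, 100333788 to 100376805), the tryptophan enzyme and a known interferon-inducible gene, was at 330.3 and 325 CPM in ERAA and 155 and 156 in ERDD, a change of -1.07 ± 0.038 (SE, adjusted p = 3.2e-07). In both genes the ERDD libraries lay close together and far below both ERAA libraries. GARS (chromosome 7, 30594681 to 30634033), which charges glycine in the cytosol and mitochondria, went from 359.8 and 359.8 to 191 and 186 CPM, a change of -0.93 ± 0.037 (SE, adjusted p = 5.9e-07). SARS (chromosome 1, 109213918 to 109238169), the serine enzyme, was at 359 and 385 CPM in ERAA and 194 and 199 in ERDD, a change of -0.92 ± 0.045 (SE, adjusted p = 1.6e-06). For MARS (chromosome 12, 57475445 to 57517569), which charges methionine, values were 291 and 289.7 CPM in ERAA and 156 and 159 in ERDD, a change of -0.88 ± 0.037 (SE, adjusted p = 7.4e-07). MARS shares reads with ARHGAP9, whose mean was 114.6 CPM in ERAA and 62.3 in ERDD, and with DDIT3, whose mean was 24.4 and 13.1 CPM in the same order. With all reads of both taken away as a lower limit, MARS kept 151.5 to 151.7 CPM in ERAA and 80.0 to 83.7 in ERDD.

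YARS (tyrosine, chromosome 1, 32775237 to 32818153) was at 308 and 302 CPM in ERAA and 185 and 187 in ERDD, a change of -0.71 ± 0.037 (SE, adjusted p = 2.2e-06). AARS (alanine, chromosome 16, 70252295 to 70289543) was at 570.2 and 548 CPM in ERAA and 337 and 344 in ERDD, a change of -0.71 ± 0.041 (SE, adjusted p = 3.1e-06). TARS (threonine, chromosome 5, 33440696 to 33469539) was at 607 and 624 CPM in ERAA and 397 and 408 in ERDD, a change of -0.61 ± 0.04 (SE, adjusted p = 6.7e-06). These 3 enzymes act outside the multisynthetase complex, and in each the ERAA and ERDD values did not overlap. The share of all tested genes without such overlap was not counted, and 68.1% of them were called. The last lower enzyme outside the complex, NARS (asparagine), changed by -0.44.

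In ERDD against ERAA, 34.8% of all tested genes were higher and 33.3% lower. The enzymes of the multisynthetase complex did not move as a unit. Of its 8 synthetases, 6 fell (MARS, IARS, DARS, QARS, LARS and EPRS, with log2 changes of -0.88, -0.64, -0.54, -0.60, -0.55 and -0.51) and KARS and RARS rose. EPRS, the most highly counted of them, was at 874 and 811.5 CPM in ERAA and 596 and 589.8 in ERDD. IARS (chromosome 9, 92210207 to 92293756), the isoleucine enzyme, was at 379.6 and 354 CPM in ERAA and 234 and 235 in ERDD (adjusted p = 8.7e-06). KARS, the lysine enzyme, moved the other way, from 175 and 182 to 259 and 266 CPM, a change of 0.56 ± 0.041 (SE, adjusted p = 1.1e-05). RARS, the arginine enzyme, went from 72.0 and 75.75 to 111 and 111 CPM, a change of 0.58 ± 0.044 (SE, adjusted p = 1.3e-05). Among the scaffold proteins AIMP2 rose, with a change of 0.47 ± 0.051 (SE, adjusted p = 8.3e-05), while AIMP1 was at 69.9 ± 1.33 CPM in ERAA and 68.9 ± 1.38 in ERDD (mean ± SD, n = 2) and was not called (-0.02, adjusted p = 0.7). EEF1E1 also rose, with a change of 0.16 ± 0.059 (SE, adjusted p = 0.042).

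Both subunits of the cytosolic phenylalanine enzyme rose together. FARSA (chromosome 19, 12922479 to 12934037), the alpha subunit, was at 99.1 and 101 CPM in ERAA and 179 and 179 in ERDD, a change of 0.84 ± 0.038 (SE, adjusted p = 1.1e-06), and FARSB, the beta subunit, went from 80.9 and 78.6 to 118 and 115 CPM, a change of 0.55 ± 0.042 (SE, adjusted p = 1.5e-05). VARS (chromosome 6, 31777518 to 31795953), the valine enzyme, was at 253 and 246.5 CPM in ERAA and 389 and 388 in ERDD, a change of 0.64 ± 0.038 (SE, adjusted p = 3.8e-06). With KARS and RARS these make the 5 cytosolic enzymes that were higher in ERDD. None of the 4 of them that had a promoter window (FARSA, FARSB, KARS and RARS) held the C/EBP-ATF letters. Of the 11 lower cytosolic enzymes with a window 6 held them. With so few genes no test was made of this difference, and a part of ATF4 in the changes was not tested. HARS was the 1 cytosolic enzyme not called, at 67.7 and 68.3 CPM in ERAA and 72.4 and 73.8 in ERDD (0.10, adjusted p = 0.062). Both structural classes of synthetases were split: of the 10 class I cytosolic enzymes 8 fell and 2 rose, and of the 10 class II enzymes 6 fell and 3 rose. Of all tested genes 34.8% were higher and 33.3% lower.

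Among the mitochondrial enzymes the serine enzyme rose most. SARS2 (chromosome 19, 38915266 to 38930896) was at 16.1 and 15.65 CPM in ERAA and 29.6 and 31.9 in ERDD, a change of 0.93 ± 0.061 (SE, adjusted p = 6.2e-06). Nearly its whole span lies within CTC-360G5.8, whose mean was 42.3 CPM in ERAA and 71.7 in ERDD. It also shares 349 bases with MRPS12, whose mean was 27.8 CPM in ERAA and 44.0 in ERDD. The part of shared reads in the rise of SARS2 was not tested. EARS2 (glutamate) went from 39.7 and 35.3 to 65.1 and 68.2 CPM, a change of 0.82 ± 0.062 (SE, adjusted p = 1.3e-05). LARS2 (leucine), which overlaps no other gene, went from 30.0 and 28.9 to 46.15 and 47.3 CPM, a change of 0.66 ± 0.051 (SE, adjusted p = 1.5e-05). The other 4 that rose were AARS2 (0.39), IARS2 (0.37), CARS2 (0.25) and MARS2 (0.21 ± 0.072, adjusted p = 0.028). The MARS2 call was lost without ERAA replicate 1 and without either ERDD replicate. VARS2, which shares reads with GTF2H4, fell by 0.27. The remaining 7 (HARS2, NARS2, PARS2, RARS2, TARS2, WARS2 and YARS2) were not called, with log2 changes from -0.13 to 0.14.

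Each of the 15 mitochondrial enzymes was set beside the cytosolic enzyme of the same amino acid, with EPRS as counterpart of both EARS2 and PARS2. In 8 of these pairs both enzymes changed between ERDD and ERAA, and in all 8 they changed in opposite directions. Among their members AARS2, CARS2, EARS2, SARS2, VARS2 and MARS share bases with other genes. Only the leucine pair has no overlap in either member. In the isoleucine pair IARS overlaps only AL136097.1, whose mean was 0.0123 CPM in ERAA. The part of shared reads in the pair results was not tested. The 8 pairs draw on the same calls as the split by compartment given above. In this comparison 68.1% of all tested genes were called, and in no comparison were such pairs set against pairs of other genes. For serine the cytosolic enzyme changed by -0.92 and the mitochondrial one by 0.93. The corresponding values were -1.08 and 0.25 for cysteine, -0.71 and 0.39 for alanine, and -0.51 and 0.82 for glutamate. Isoleucine, leucine and methionine showed the same arrangement, and valine the mirror image, with VARS at 0.64 and VARS2 at -0.27. Of the pairs not both called, asparagine, tryptophan and tyrosine also had opposite signs. Histidine, arginine, proline and threonine had the same sign in both enzymes. The summed cytosolic level was 6017 and 6095 CPM in ERAA and 4418 and 4444 CPM in ERDD, while the summed mitochondrial level was 760.3 and 765.3 CPM in ERAA and 944.1 and 951.6 CPM in ERDD. The ratio of the sums was thus 7.91 and 7.96 in the ERAA libraries against 4.67 and 4.68 in those of ERDD.

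**Figure D2:**
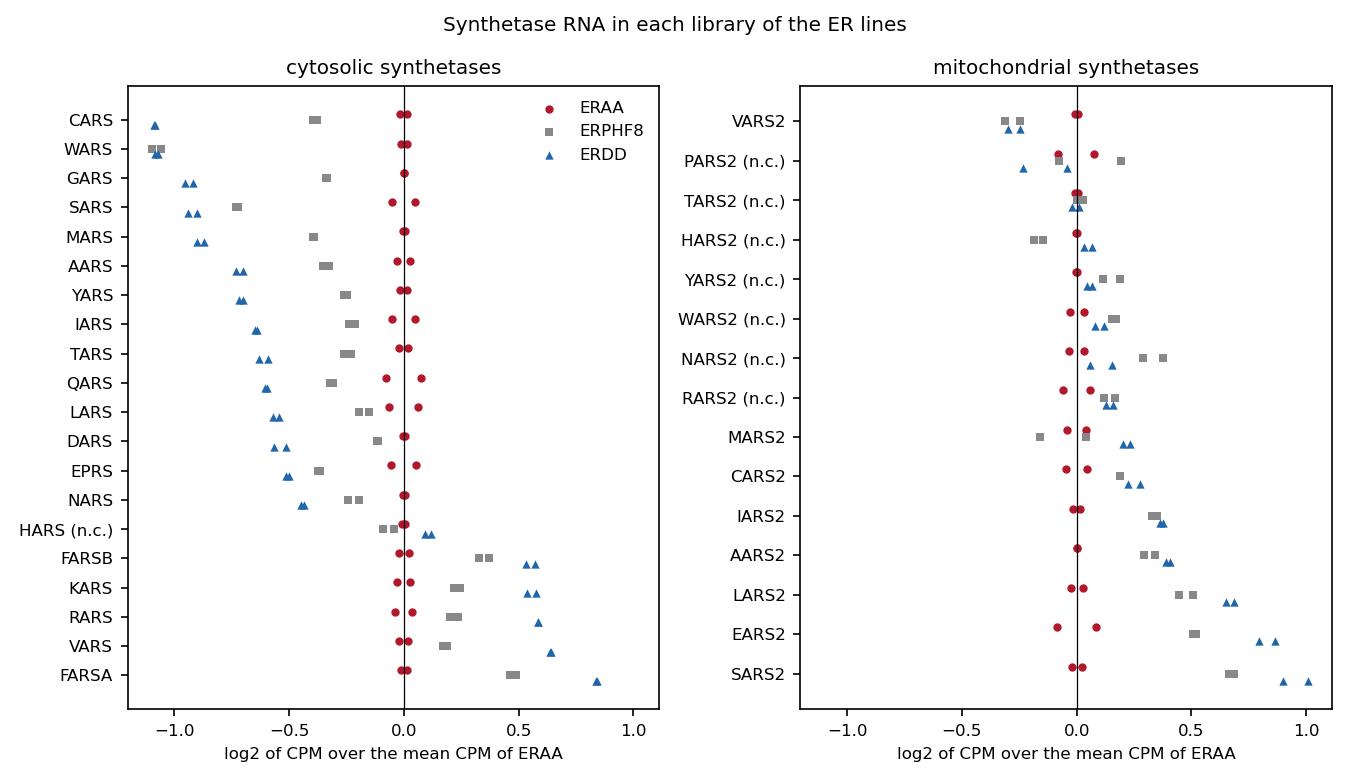
Log2 of each library's CPM over the mean CPM of ERAA for the 20 cytosolic (left) and 15 mitochondrial (right) synthetases, with 2 points per line (red circles ERAA, grey squares ERPHF8, blue triangles ERDD); n.c. marks genes not called between ERDD and ERAA. Most cytosolic genes step down from ERAA through ERPHF8 to ERDD, 5 step up, and the ERPHF8 and ERDD points of WARS lie side by side.

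ERPHF8 lay between ERAA and ERDD for most members. The order ERAA, ERPHF8, ERDD from high to low held in every library for 13 cytosolic enzymes (AARS, CARS, DARS, EPRS, GARS, IARS, LARS, MARS, NARS, QARS, SARS, TARS and YARS). The reverse order held in every library for the 5 cytosolic enzymes that were higher in ERDD and for the 6 mitochondrial enzymes AARS2, CARS2, EARS2, IARS2, LARS2 and SARS2. Summed levels in ERPHF8 were 5033 and 5037 CPM for the cytosolic and 907.3 and 908.4 CPM for the mitochondrial enzymes. The remaining 11 members had other orders, or groups whose libraries overlapped. These orders were not counted over all tested genes, so whether they are commoner among synthetases was not tested. Of all tested genes, 68.1% were called in ERDD against ERAA, 53.8% in ERPHF8 against ERAA and 52.8% in ERDD against ERPHF8.

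Against ERAA, ERPHF8 had 13 synthetases higher and 16 lower (background 29.7% higher and 24.1% lower, 53.8% called). Of the cytosolic enzymes 5 rose and 14 fell, with a median of -0.23, and of the mitochondrial enzymes 8 rose and 2 fell, with a median of 0.16. WARS was at 153 and 157 CPM in ERPHF8, a change of -1.08 ± 0.038 (SE, adjusted p = 3.1e-06) from ERAA, and SARS at 224 and 225 CPM, a change of -0.73 ± 0.045 (SE, adjusted p = 2.1e-05). These 2 fell well beyond the other cytosolic enzymes: MARS, CARS, GARS, AARS and EPRS changed by -0.39, -0.38, -0.34, -0.34 and -0.37. Among those that rose, FARSA was at 138 and 140.1 CPM (0.47 ± 0.038 SE, adjusted p = 5.8e-05), FARSB changed by 0.35, and in mitochondria SARS2 changed by 0.66 ± 0.061 (SE, adjusted p = 1e-04), EARS2 by 0.51, LARS2 by 0.47 and IARS2 by 0.34. In 9 amino acid pairs both enzymes changed, and all 9 did so in opposite directions. Among them only the leucine and asparagine pairs have no overlap with another gene in either member. Without ERPHF8 replicate 1 or 2, both enzymes of 6 of these 9 pairs were still called. The calls of CARS2, DARS, HARS2 and LARS were lost without either ERPHF8 library, that of YARS2 without replicate 1 and those of VARS and VARS2 without replicate 2, so that the mitochondrial counts were 6 higher and 1 lower without replicate 1 and 7 and 0 without replicate 2. The comparison shares the ERAA libraries with the one above.

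Against ERPHF8, ERDD had 11 synthetases higher and 14 lower (background 24.8% higher and 28% lower, 52.8% called), and this comparison shares libraries with both others. CARS changed by -0.70 ± 0.039 (SE, adjusted p = 1.1e-05), GARS by -0.60 ± 0.037 (SE, adjusted p = 2e-05), MARS by -0.49, YARS by -0.46, DARS by -0.42 and IARS by -0.42. In the other direction VARS changed by 0.46 ± 0.038 (SE, adjusted p = 7.7e-05), FARSA by 0.36, RARS by 0.36 and KARS by 0.32. The aspartate enzyme DARS dropped mostly between ERPHF8 and ERDD: it was at 207 and 208 CPM in ERAA, 192 and 191 in ERPHF8 and 145 and 140.0 in ERDD. WARS differed from ERAA in both lines but had 155 and 156 CPM in ERDD beside 153 and 157 in ERPHF8 (0.00 ± 0.038, adjusted p = 0.97). The count rested in part on single libraries, and was 16 in place of 25 without ERPHF8 replicate 2. Of the mitochondrial enzymes 5 rose and 1 fell, with a median of 0.03, but 1 was higher and 0 were lower without ERPHF8 replicate 2, and 2 and 0 without either ERDD replicate. Here 6 amino acid pairs had both members called, 4 in opposite directions and 2 (histidine and asparagine) in the same one. None of the 6 pairs kept both calls without ERDD replicate 1 or 2 or ERPHF8 replicate 2, and 2 of them did without ERPHF8 replicate 1. EPRS, LARS2, NARS2 and SARS lost their calls whichever of the 4 libraries was left out.

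Genes that share the pathway were described beside the synthetases from lists. Of 29 genes of the ATF4 axis, 26 were lower and 0 higher in ERDD than in ERAA, with a median log2 change of -1.47. Of all tested genes 33.3% were lower and 34.8% higher. ATF4 itself was at 761 ± 89.4 CPM (mean ± SD, n = 2) in ERAA and 259.7 ± 2.2 in ERDD, a change of -1.54 ± 0.071 (SE, adjusted p = 1.1e-06). ASNS, which makes asparagine, was at 249 ± 2.58 and 45.4 ± 1.1 CPM (-2.44), and PSAT1, an enzyme of serine synthesis, at 599 ± 2.01 and 141 ± 1.77 CPM (-2.08). DDIT4, an inhibitor of mTOR signalling, changed by -2.57 and STC2, a secreted glycoprotein, by -3.09. The falls in these 5 genes were all larger than the largest among the synthetases, -1.08 for CARS. In ERDD against ERPHF8, 27 of the 29 were lower and 0 higher (median -0.89, background 28% lower and 24.8% higher). In ERPHF8 against ERAA 19 were lower and 2 higher (median -0.32, background 24.1% lower and 29.7% higher). The summed level of the list was 7144 and 7360 CPM in the ERAA libraries, 5206 and 5239 in ERPHF8 and 2864 in both ERDD libraries. Whether ATF4 had a part in the synthetase changes was not tested.

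Of 15 genes that hold further synthetases and their partners, 5 rose and 3 fell in ERDD against ERAA. In that comparison 68.1% of all tested genes were called (34.8% higher, 33.3% lower), which is the background for each list in this paragraph. XPOT, which exports transfer RNA from the nucleus, was at 345 ± 14.8 CPM in ERAA and 182 ± 0.16 in ERDD, a change of -0.92 ± 0.044 (SE, adjusted p = 1.2e-06). QRSL1, a subunit of the mitochondrial enzyme that makes glutaminyl-tRNA, moved the other way with a change of 0.58 ± 0.052 (SE, adjusted p = 3.1e-05). Of 14 translation factors 6 rose and 7 fell, with EIF5 at 0.77, EIF2B5 at 0.61, EEF2 at -0.78 and EIF2S3 at -0.66. Of 16 genes of mitochondrial translation and transcription 8 rose and 2 fell, led by TUFM, which delivers charged transfer RNA to the mitochondrial ribosome, at 0.84 ± 0.06 (SE, adjusted p = 1e-05), and by the elongation factor GFM1 at 0.47. In ERPHF8 against ERAA the counts of higher and lower genes were 5 and 1 for the partners, 4 and 8 for the translation factors and 10 and 0 for the mitochondrial list. In ERDD against ERPHF8 they were 1 and 3, 7 and 6, and 2 and 5. The share of all tested genes called was 53.8% in ERPHF8 against ERAA and 52.8% in ERDD against ERPHF8.

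Marker genes also differed between these lines. Monocytic markers summed to 1383 and 1423 CPM in ERAA, 1558 and 1587 in ERDD and 1184 and 1185 in ERPHF8. Of the 8, 3 were higher and 2 lower in ERDD against ERAA (68.1% of all tested genes called). In ERPHF8 against ERAA 0 were higher and 6 lower (53.8%), and in ERDD against ERPHF8 6 were higher and 0 lower (52.8%). Markers of other blood cells summed to 14.9 to 22.6 CPM over the ER libraries, and the stromal or epithelial list, nearly all of it PECAM1, to 395 and 399 CPM in ERAA, 622.8 and 630.4 in ERDD and 419.1 and 420.9 in ERPHF8. The part of these differences in the synthetase changes was not tested.

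**Figure D3:**
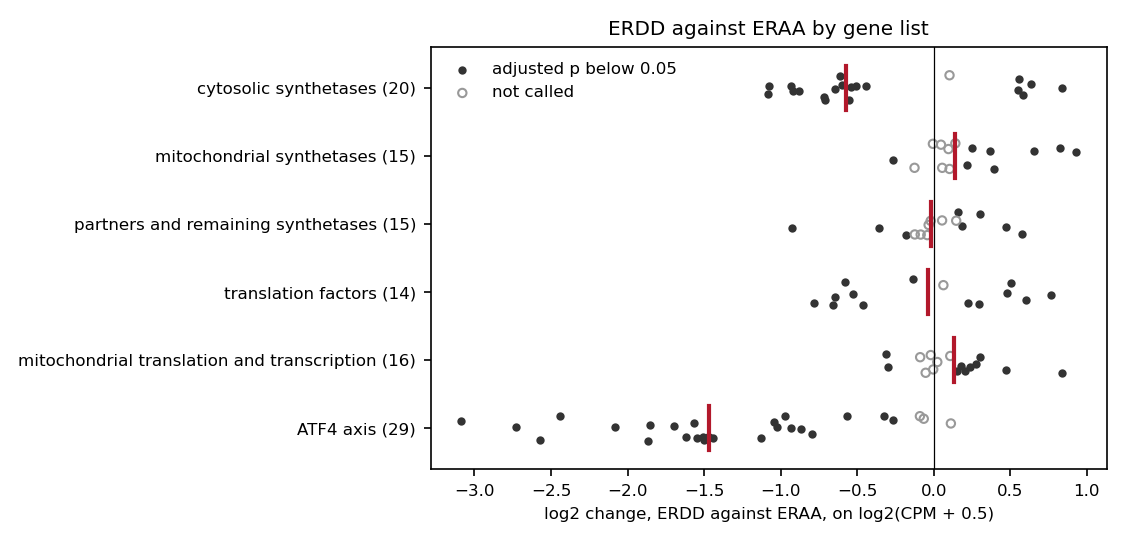
Log2 change of ERDD against ERAA (log2(CPM + 0.5) scale) for each gene of 6 lists, with the number of genes in parentheses, filled points for adjusted p below 0.05 and red bars at the list medians. The ATF4 axis lies furthest to the left with a median of -1.47, the cytosolic synthetases fall into a lower and a higher cluster around a median of -0.58, and the mitochondrial synthetases lie mostly to the right of 0.

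In the first experiment, 4 synthetases differed between PHF8 and wt, among them the alanine and cysteine enzymes AARS and CARS. Of the 4, 3 were higher in PHF8 and 1 was lower, where 21% of the 13683 tested genes were called (12.7% higher, 8.28% lower). AARS was at 225, 214, 211 and 214 CPM in wt libraries 1 to 4 and 314.5, 311, 248 and 229 CPM in PHF8, a change of 0.34 ± 0.094 (SE, adjusted p = 0.025). CARS was at 42.8, 44.4, 46.0 and 47.4 CPM in wt and 65.8, 63.9, 52.9 and 50.1 in PHF8, a change of 0.35 ± 0.086 (SE, adjusted p = 0.012). In both genes every PHF8 library lay above every wt library, and PHF8 libraries 1 and 2 lay above 3 and 4. How many of all tested genes had such an order was not counted. The mitochondrial serine enzyme SARS2 was at 25.6, 24.0, 20.5 and 18.8 CPM in wt and 33.0, 34.9, 28.2 and 26.0 in PHF8, a change of 0.45 ± 0.12 (SE, adjusted p = 0.021), whereas CTC-360G5.8, the gene that spans it, averaged 74.3 and 74.7 CPM. VARS2 (chromosome 6, 30908242 to 30926459), the mitochondrial valine enzyme, was the 1 that fell, from 30.4, 29.3, 24.0 and 23.7 to 22.45, 19.9, 19.7 and 19.3 CPM, a change of -0.39 ± 0.097 (SE, adjusted p = 0.014). After all reads of the overlapping GTF2H4 were taken away, VARS2 kept 12.2 to 17.5 CPM in wt and 11.1 to 13.6 in PHF8, ranges that overlap. The AARS call was lost without PHF8 replicate 1 or 2 or wt replicate 2, 3 or 4, and that of SARS2 without PHF8 replicate 1 or 2 or wt replicate 3 or 4. TARS had the largest change of all members, from 303, 311, 209.5 and 220.2 to 415, 399.8, 316.5 and 331 CPM, but with 0.50 ± 0.17 (SE, adjusted p = 0.052) it was not called.

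The libraries of this experiment form 2 pairs that differ in synthetase RNA, and the depth of libraries 3 and 4 reaches higher, as given above. Averaged over wt, PHF8 and F279S, 32 synthetases were higher and 1 was lower in libraries 1 and 2 than in 3 and 4 (background 32.3% higher and 38.1% lower, 70.4% called), with a median log2 difference of 0.34. GARS was at 164, 168.5, 98.2 and 98.8 CPM in wt libraries 1 to 4, and its difference between the pairs was 0.69 ± 0.025 (SE, adjusted p = 2.6e-10). FARSA was at 284.5, 273, 148 and 155 CPM in wt, with a difference of 0.73 ± 0.034 (SE, adjusted p = 2.4e-09), and FARSB (0.68), EARS2 (0.63), VARS (0.57) and RARS (0.55) followed. DARS alone was lower in libraries 1 and 2, at 184, 183, 241 and 261 CPM in wt and 181, 178, 234 and 256.5 in PHF8, a difference of -0.46 ± 0.033 (SE, adjusted p = 9.9e-08). CARS and HARS2 were the 2 not called. Of the monocytic markers 1 was higher and 6 were lower in libraries 1 and 2. The labels name no batch, and what the pairs share was not tested.

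**Figure D4:**
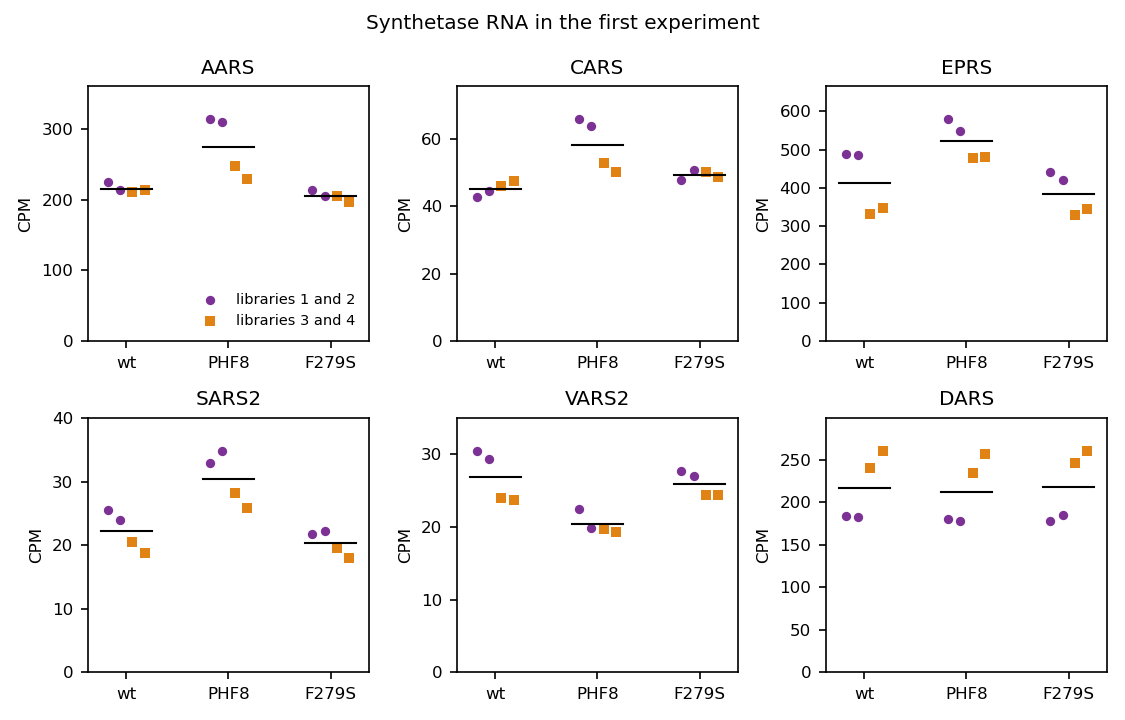
CPM (axis from 0) of 6 synthetases in the 12 libraries of the first experiment, with purple circles for libraries 1 and 2, orange squares for libraries 3 and 4 and black bars at the means of each line (n = 4). AARS and CARS are raised most in PHF8 libraries 1 and 2, EPRS and SARS2 are higher in PHF8 within each pair, VARS2 is lower, and DARS is higher in libraries 3 and 4 of every line.

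More members were called when PHF8 and wt were compared within library numbers. With the replicate number as a block, 14 synthetases were called, 12 higher and 2 lower (background 41.4%), and with the library pair as a factor 15 (40.9%). Besides the 4 above these were TARS (0.50 ± 0.045 SE, adjusted p = 1.6e-05), EPRS (0.35 ± 0.056 SE, adjusted p = 0.00061), IARS2 (0.29 ± 0.055 SE, adjusted p = 0.0021), EARS2, YARS, GARS, CARS2, FARSB and RARS2, which were higher, and TARS2, which was lower. Fitted on libraries 1 and 2 alone, 8 were higher and 7 lower (background 51.4%), and on libraries 3 and 4 alone 18 were higher and 1 lower (42.1%). TARS, EPRS, YARS, EARS2, IARS2 and SARS2 were higher in PHF8 in both pairs, and VARS2 was lower in both. For EPRS, wt was at 488, 486, 333 and 348 CPM and PHF8 at 579.5, 549, 478 and 482 CPM, and its change was 0.21 ± 0.051 (SE, adjusted p = 0.0013) in libraries 1 and 2 and 0.50 ± 0.051 (SE, adjusted p = 0.00067) in 3 and 4. The change in TARS was 0.41 and 0.59 in the same order, and that in SARS2 0.45 and 0.45.

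KARS, RARS, WARS and LARS2 were called in both pairs in opposite directions. WARS changed by -0.25 in libraries 1 and 2 and by 0.29 in libraries 3 and 4, and KARS by -0.19 and 0.28. The signed log2 change of PHF8 against wt in libraries 1 and 2 minus that in libraries 3 and 4 was itself tested: it was called above 0 for 4 synthetases and below 0 for 17 (background 14.4% and 16.1%, 30.5% called). Its sign does not say in which pair a gene changed more. CARS had the largest positive difference, 0.43 ± 0.081 (SE, adjusted p = 0.0023), followed by AARS at 0.35 ± 0.073 (SE, adjusted p = 0.0045), MARS at 0.32 and QARS at 0.20; with no filter MARS and QARS were not called, nor was QARS under TMM scaling. Within libraries 3 and 4, AARS changed by 0.16 ± 0.056 (SE, adjusted p = 0.054) and CARS by 0.14 ± 0.056 (SE, adjusted p = 0.087), neither of them called there. At the other end MARS2 (-0.73), WARS (-0.54), RARS (-0.51) and KARS (-0.47) had negative differences.

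**Figure D5:**
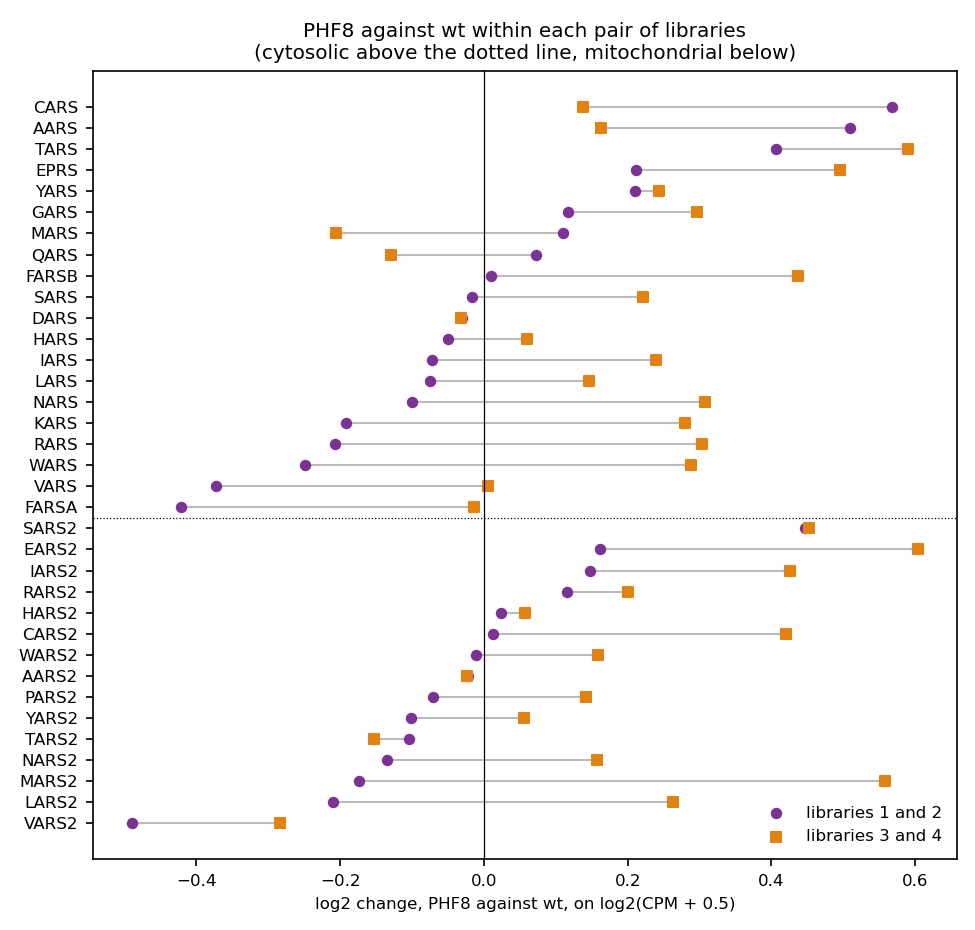
Log2 change of PHF8 against wt (log2(CPM + 0.5) scale) for each synthetase, fitted on libraries 1 and 2 (purple circles) and on libraries 3 and 4 (orange squares), with a grey line joining the values of a gene. SARS2 and TARS are to the right of 0 and VARS2 to the left in both pairs, while KARS, RARS, WARS and LARS2 have a point on each side of 0.

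With F279S, a form of PHF8 known to lack demethylase activity, 0 synthetases were called against wt (background 0.0146%). An unadjusted p below 0.05 was reached by 0, and 0 were called by voom in limma. These fits had group as the only term, so the difference between the library pairs stayed in their spread. Log2 changes ran from -0.26 for WARS2 to 0.13 for WARS. AARS was at 215, 206, 205.5 and 197 CPM, EPRS at 440.5, 420.4, 329.9 and 345 CPM and SARS2 at 21.8, 22.2, 19.6 and 17.9 CPM. In these 3 genes each F279S library lay below the wt library of the same number. The same held for IARS, LARS, YARS, NARS2, TARS2, WARS2 and YARS2. In TARS, CARS, NARS, RARS, WARS, GARS and KARS each F279S library lay above the wt library of its number. Such orders were not counted over all tested genes. Over the 35 synthetases the median log2 change was -0.03, with 14 changes above 0. Within libraries 1 and 2 alone, EPRS (-0.18) and IARS (-0.16) were called lower (background 14.2%), and 0 were called in libraries 3 and 4 alone (0.0877%) or with the replicate number as a block (2.18%). With that block in limma, WARS2 changed by -0.26 ± 0.074 (SE, adjusted p = 0.1) and TARS by 0.13 ± 0.045 (SE, adjusted p = 0.16).

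Against F279S, PHF8 had 3 synthetases higher and 1 lower (background 12.2% higher and 7.92% lower, 20.1% called). SARS2 changed by 0.56 ± 0.12 (SE, adjusted p = 0.0066), AARS by 0.41 ± 0.094 (SE, adjusted p = 0.0098) and EPRS by 0.45 ± 0.14 (SE, adjusted p = 0.047), and VARS2 changed by -0.34 ± 0.097 (SE, adjusted p = 0.028). In SARS2, AARS and EPRS every PHF8 library lay above every F279S library, an order not counted over all tested genes. The EPRS call was lost in 7 of 8 fits that left out 1 library, all but that without F279S replicate 1, and also under TMM scaling or with no filter. The VARS2 call was lost without F279S replicate 1 or 2 or PHF8 replicate 2, 3 or 4. With the replicate number as a block 14 were called, 13 higher and 1 lower (background 41.1%), and with the library pair as a factor 15 (40.7%). Fitted by pair, 9 were higher and 8 lower in libraries 1 and 2 (53.8%), and 17 higher and 1 lower in libraries 3 and 4 (35.2%). AARS, EARS2, EPRS, IARS2, SARS2, TARS and YARS were higher in both pairs and VARS2 lower, while KARS and NARS were called in opposite directions. The PHF8 libraries are those compared with wt above.

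Of the ATF4 axis, 7 of 29 genes were higher and 1 was lower in PHF8 against wt (median 0.29), 10 and 2 in PHF8 against F279S (median 0.31), and 0 in F279S against wt, where 2 had an unadjusted p below 0.05. The share of all tested genes called was 21% in PHF8 against wt, 20.1% in PHF8 against F279S and 0.0146% in F279S against wt. ASNS was at 20.2 ± 3.35 CPM (mean ± SD, n = 4) in wt, 40.35 ± 8.16 in PHF8 and 19.0 ± 3.77 in F279S. SLC38A2, an amino acid importer, changed by 0.62 ± 0.061 (SE, adjusted p = 3.4e-05) from wt to PHF8. ATF4 itself was at 207 ± 4.55, 216 ± 13.6 and 197 ± 11.6 CPM in the same order, with 0.06 ± 0.061 against wt (adjusted p = 0.58). Of the 15 partners and further synthetases, 1 was called between PHF8 and wt. DTD1, which removes D-amino acids from transfer RNA, was higher in PHF8 with a change of 0.32 ± 0.1 (SE, adjusted p = 0.042). It was not called under TMM scaling, with no filter, or without PHF8 replicate 1, 2 or 4 or wt replicate 3 or 4. Translation factors had 0 of 14 called in that comparison (1 at an unadjusted p below 0.05), and mitochondrial translation and transcription 1 lower of 16. Monocytic markers summed to 1609 to 2102 CPM in wt, 1047 to 1351 in PHF8 and 1577 to 1797 in F279S, with 1 higher and 3 lower of 8 in PHF8 against wt. In the same order, markers of other blood cells summed to 26.0 to 34.5, 27.2 to 33.05 and 32.8 to 42.05 CPM, and stromal or epithelial markers to 287 to 386, 244 to 335 and 388 to 413 CPM. Their part in the synthetase changes was not tested.

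The experiments were not fitted together, and the levels stand side by side only as a description. ERAA held more cytosolic synthetase RNA than any other line, with a summed level of 6017 to 6095 CPM beside 3226 to 4445 CPM in wt, 3728 to 4495 in PHF8 and 3283 to 4374 in F279S. The ERDD range of 4418 to 4444 CPM lay within that of wt. CARS lay above its wt range in all 3 ER lines: its wt values were 42.8 to 47.4 CPM, its ERDD values 70.7 and 71.1, its ERPHF8 values 116 and 115 and its ERAA values 152 and 149 CPM. FARSA was lowest in ERAA, at 99.1 and 101 CPM beside 148 to 284.5 CPM in wt.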

How the data were processed

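For each of 18 libraries the authors deposited RPKM values for 19784 genes with hg38 coordinates. The submitters' processing notes name DESeq2, SAMtools 1.9 and STAR 2.7.0c. How reads were counted, and with which strand setting, is not given in the sources used here. RPKM had been divided by the whole gene span, so RPKM times span in kilobases gave CPM, and all values were whole reads within 0.001 reads (100%), which also gave the library totals. Intron reads were therefore taken to count, and reads in overlapping genes to count in each. The 3 reads taken as a floor correspond to at most 0.165 CPM in any library, and every synthetase lay above it.

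Genes with at least 1 CPM in at least 4 (first experiment, 13683 genes) or 2 (second, 13831 genes) libraries were tested with limma 3.58.1 in R 4.3.3 (trend option; data.table package 1.17.8) on log2(CPM + 0.5), all groups of an experiment in 1 fit with group as the only term, two-sided, with Benjamini-Hochberg adjustment over all tested genes and a threshold of 0.05. Differences between libraries 1 and 2 and libraries 3 and 4 came from cell means. The scripts were tested on simulated data. Same-numbered libraries of the first experiment deviated together from their group means (r from 0.484 to 0.908 across genes in every pair), so the numbers were taken to pair the samples there. Libraries numbered 1 and 2 were not told apart by this: for replicate 1 the correlation was 0.519 with the same number and 0.55 with another in PHF8 against wt, and 0.809 and 0.819 in F279S against wt, where replicate 2 had 0.809 with both. In the second they did not (r from -0.336 to 0.104). Alternatives were the pseudocount, filter, TMM scaling, replicate block, library pair, single pairs and leaving out each library; voom and a crossed block were added after seeing the data. A planned count test was not run on the deposited unit.

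Described by name were PHF8, every synthetase called in a comparison by smallest p, up to 12, the 3 highest and lowest of each compartment per kb, overlapping neighbours, and up to 4 genes of each list by smallest p; WARS, DARS and TARS values beyond this, ATF4, AIMP1, EEF1E1 and genes named to complete a count were chosen after their values were seen. A gene of the list of partners is not reported here and was left out of that list. Members, lists and markers were chosen with earlier results of these data known. Coordinates are 1-based on hg38, promoter sequences are from RefSeq (GRCh38.p14), and transcript lengths are from GENCODE v29, with which 33 of 35 members share coordinates.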

Additional observations from a re-analysis of the deposited data

Results flagged for a closer look

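Of 105 groups of 4 libraries (35 synthetases in wt, PHF8 and F279S), 0 held a library that stood apart from the other 3 by Dixon's test, where chance would give about 1 in 20. Many of these groups are split between libraries 1 and 2 and libraries 3 and 4, as given above. Such a split puts the widest gap in the middle, where the test does not look. The 0 therefore does not show that outlying libraries are absent. For AARS and CARS, genes called in PHF8 against wt, the change differed between libraries 1 and 2 and libraries 3 and 4. In limma, the PHF8 against wt change in AARS was larger in libraries 1 and 2 by 0.35 ± 0.073 (SE, adjusted p = 0.0045), and that in CARS by 0.43 ± 0.081 (SE, adjusted p = 0.0023). The AARS change in PHF8 against F279S was larger there by 0.33.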

How the results depend on the processing

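No synthetase called with all libraries in a comparison changed direction under any alternative run; KARS, RARS, WARS and LARS2 in PHF8 against wt, and KARS and NARS in PHF8 against F279S, were not called with all libraries and were called in opposite directions in the 2 library pairs. Of the 27 called in ERDD against ERAA, all but MARS2 kept their call under every alternative, and MARS2 also lost it with no filter. In PHF8 against wt, the 4 calls became 14 with a replicate block, 15 with the library pair as a factor, 15 when only libraries 1 and 2 were fitted and 19 when only 3 and 4 were, and 2 to 5 when 1 library was left out. For PHF8 against F279S, the 4 became 14, 15, 17 and 18 in the same order and 2 to 3 when 1 library was left out, with 2 calls without F279S replicate 2 or PHF8 replicate 2 or 3. The lowest count in PHF8 against wt, 2, came without PHF8 replicate 1 or 2 or wt replicate 3 or 4. F279S against wt went from 0 to 2 in libraries 1 and 2 alone. In ERDD against ERPHF8, 25 calls became 16 to 21 when 1 library was left out, the lowest without ERPHF8 replicate 2. Such a fit leaves 1 library in a group of the second experiment, which is assumed to vary like the others. The cause of these shifts was not tested beyond the smaller number of libraries in the fits. Pseudocount, filter, TMM scaling and voom (the last not run for the difference between library pairs) moved no total of called synthetases in a comparison by over 1.5 times. TMM scaling and no filter each ended the EPRS call in PHF8 against F279S, which left 1 of 2 cytosolic calls. With no filter the difference between library pairs in PHF8 against wt was called above 0 for 2 synthetases in place of 4. Replicate numbers of the second experiment did not pair the samples. The block there gave 27, 28 and 24 calls in ERDD against ERAA, ERPHF8 against ERAA and ERDD against ERPHF8, and a crossed block, added after seeing the data, gave 29 in ERPHF8 against ERAA. The planned count test was not run because the deposited unit is RPKM; voom on the recovered whole reads (100% whole) called 2828 genes in PHF8 against wt beside 2874. With 2 libraries a group, small changes of low members such as PARS2 were the least resolved.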
